A study of Mus musculus with 14 samples.

Results

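This comparison sets mouse embryonic stem (ES) cell colonies on day 4 in retinoic acid directly against ES cell cultures after 48 h of it. It uses 4 of the 14 arrays in the series: both labelled MC1-ZE16, RA50 day4 and both labelled MC1-ZE-3 atRA50 48h, chosen by those titles and not by any measured value. All probes that are not controls on these arrays were read, 42006 in number. Of these, 31053 were tested, namely those whose sample signal was clear of background on the 2 arrays of some group among the 7.

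Both groups are 129/Sv MC1 ES cells in medium with LIF, and both received 50 nM retinoic acid. The day 4 group is subline MC1-ZE16, labelled male, plated straight into medium with the acid. The series text says that pluripotent colonies were picked by hand on day 4, whereas the treatment label has lysis reagent added to the culture that day. The 48 h group is subline MC1-ZE3, labelled as of unknown sex, grown for 24 h before 48 h of treatment. Its extraction label also names picked, pooled colonies, while the series text names no picking for it. Untreated groups serve as a yardstick, and both are labelled MC1-ZE3 without retinoic acid: control day 3 and standard day 3, 2 arrays each. The other groups are day 7 colonies picked in 50 nM retinoic acid (cells labelled MC1 Intact), MC1-ZE3 cells kept for 10 passages without the acid after such a treatment (passage 10), and MC1-ZE3 cells given the PI3K inhibitor LY294002 for 48 h, labelled 10 nM, a unit that could not be checked here. The labels do not say if replicate arrays hold RNA of separate cultures. The p-values therefore rest on array-to-array spread alone, which may be technical. Every array also held a reference in the second dye, made of RNA from a pool of 11 cell lines to which 129 ES cell RNA was added. Levels below are log2 of sample over that reference.

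Retinoic acid is the active form of vitamin A. It enters the nucleus, binds receptors that sit on DNA as pairs with the retinoid X receptor, and switches on genes such as the Hox clusters. ES cells exposed to it tend to leave the pluripotent state, also where LIF, a cytokine that sustains self-renewal, is present; colonies that keep an undifferentiated look can be picked from such cultures.

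The scanner files pair each probe with an identifier and a 60-base sequence but with no gene. The probes with the largest differences are therefore shown by their sequence, with the bases that 2 probes share in capitals. The pair that was highest in the colonies relative to 48 h overlaps by 45 bases, so both read 1 RNA.
Z00074574-1: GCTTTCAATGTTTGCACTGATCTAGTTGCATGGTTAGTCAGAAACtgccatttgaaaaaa
Z00002490-1: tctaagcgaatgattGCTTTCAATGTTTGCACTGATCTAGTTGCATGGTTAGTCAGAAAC
The pair that was lowest meets end to end over 14 bases.
Z00057247-1: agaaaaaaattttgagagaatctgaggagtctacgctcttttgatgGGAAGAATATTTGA
Z00038105-1: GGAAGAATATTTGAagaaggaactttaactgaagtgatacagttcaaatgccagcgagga
One probe with a large difference lies inside the annotated span of Hoxb2, and all its bases (capitals) match the RefSeq sequence just upstream of Hoxb3os on GRCm38.p6, chr11:96353540-96353599, plus strand.
Z00070363-1: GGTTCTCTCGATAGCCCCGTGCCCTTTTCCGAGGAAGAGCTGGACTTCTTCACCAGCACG

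The 2 groups differed at 58.4% of the tested probes, with more lower than higher in the colonies on the ratio to the reference and the reverse with the sample dye alone. A total of 7869 probes were higher in day 4 colonies (25.3% of those tested) and 10251 were lower (33%), by limma's moderated test with Benjamini-Hochberg adjustment across the tested probes (threshold 0.05). At 2-fold or more, 802 were higher (2.58%) and 2059 lower (6.63%). The arrays of the groups did not overlap at any of these 2861 probes (9.21% of those tested), nor at 82% of all tested probes. Differences ran from -5.14 to 4.04 on the log2 scale, and at 4-fold or more 52 were higher and 289 lower. With the sample dye alone, scaled between arrays by quantiles, 9727 were higher and 9007 lower (51.9% of the calls higher, in place of 43.4%). At 2-fold the split was then 1755 higher and 2077 lower (45.8% higher, in place of 28.0%).

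**Figure D1:**
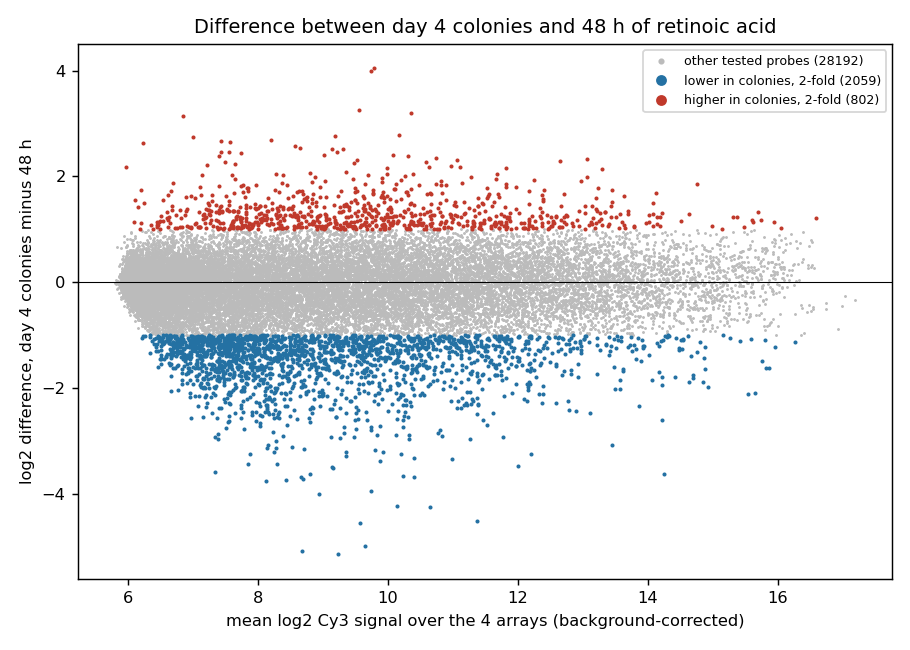
Each point is 1 of 31053 tested probes. The horizontal axis is the mean log2 sample-dye signal over the 4 arrays and the vertical axis the log2 difference, day 4 colonies minus 48 h. The 2059 probes that were lower by 2-fold or more (blue) reach -5.14, and the 802 that were higher (red) reach 4.04.

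Replicates lay far closer to each other than the groups did. The median absolute difference between the 2 arrays was 0.065 in day 4 colonies and 0.061 at 48 h, and 2 probes in each group differed 2-fold between arrays. Across probes the replicates correlated at r of 0.993 in both groups, against 0.773 to 0.783 between an array of one group and an array of the other. The points share the reference RNA, and genes are not independent replicates.

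Signal over background differed with the groups. The share of probes well above background in the sample dye was 58.5% in day 4 colonies and 71.9% at 48 h, within a range of 56.1% to 75.1% over all 14 arrays. It was 58.0% in standard day 3 and 74.0% in control day 3. Of the 2059 lower probes, 178 were not well above background on both day 4 arrays, and of the 802 higher probes 7 were not on both 48 h arrays. Probes above background on all 4 arrays still gave 785 higher and 1881 lower by 2-fold or more. With the tested probes split by brightness into 3 equal classes of 10351, the dimmest held 32 higher and 87 lower, the middle one 319 and 1144, and the brightest 451 and 828. The part of signal strength in the counts was not tested beyond these values.

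The groups also differ in subline, in time in retinoic acid, and in slide and scan day; the labels do not settle whether they differ in picking. Day 4 arrays lay alone on slide 4, and the 48 h arrays shared slide 5 with control day 3, scanned on another day. These cannot be told apart from one another in the direct comparison. As the RNA is from bulk samples, fewer cells of a type and less RNA per cell cannot be told apart either. The ES cell label could not be checked: of 10 genes chosen for that, such as Pou5f1, Nanog and Cyp26a1, 0 could be matched to a probe.

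The RNA read by Z00074574-1 and Z00002490-1 was higher in day 4 colonies than in any other group. Z00074574-1 had log2 levels of 3.06 and 3.07 on the day 4 arrays and -0.95 and -1.01 at 48 h. It lay at 0.04 and 0.02 in control day 3, at 0.89 and 1.04 in standard day 3, and at 0.08 and -0.05 in day 7 colonies. The day 4 arrays stood clear of all 12 others, and the LY294002 arrays were lowest, at -2.91 and -2.61. The difference between day 4 and 48 h was 4.04 (SE 0.10), or 16.5-fold, with a limma adjusted p of 2.27e-11. Its overlapping partner gave 3.99 (SE 0.09), from levels of 3.06 and 3.13 in the colonies and -0.85 and -0.93 at 48 h.

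The lowest pair showed another order of groups. Z00057247-1 had levels of 0.82 and 0.83 in day 4 colonies and of 5.92 and 6.01 at 48 h, a difference of -5.14 (SE 0.07, 35.4-fold, limma adjusted p 1.81e-13). Levels were also high without retinoic acid in control day 3 (4.48 and 4.41) and in day 7 colonies (4.30 and 4.38). They were near the reference in standard day 3 (0.20 and 0.10), passage 10 (0.14 and 0.12) and LY294002 (-0.05 and 0.01). So the 2 untreated groups, both labelled MC1-ZE3, differed at this probe by -4.29 (SE 0.07), nearly as much as the groups given retinoic acid. Z00038105-1 fell by 5.08 (SE 0.08), from 5.53 and 5.56 at 48 h to 0.44 and 0.50 in the colonies. It too was high in control day 3 (3.93 and 4.07) and in day 7 colonies (3.66 and 3.71), and at or under 0.25 on the arrays of the other 3 groups. In none of those 3 groups was it well above background on both arrays, so its level there may be set by the background.

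**Figure D2:**
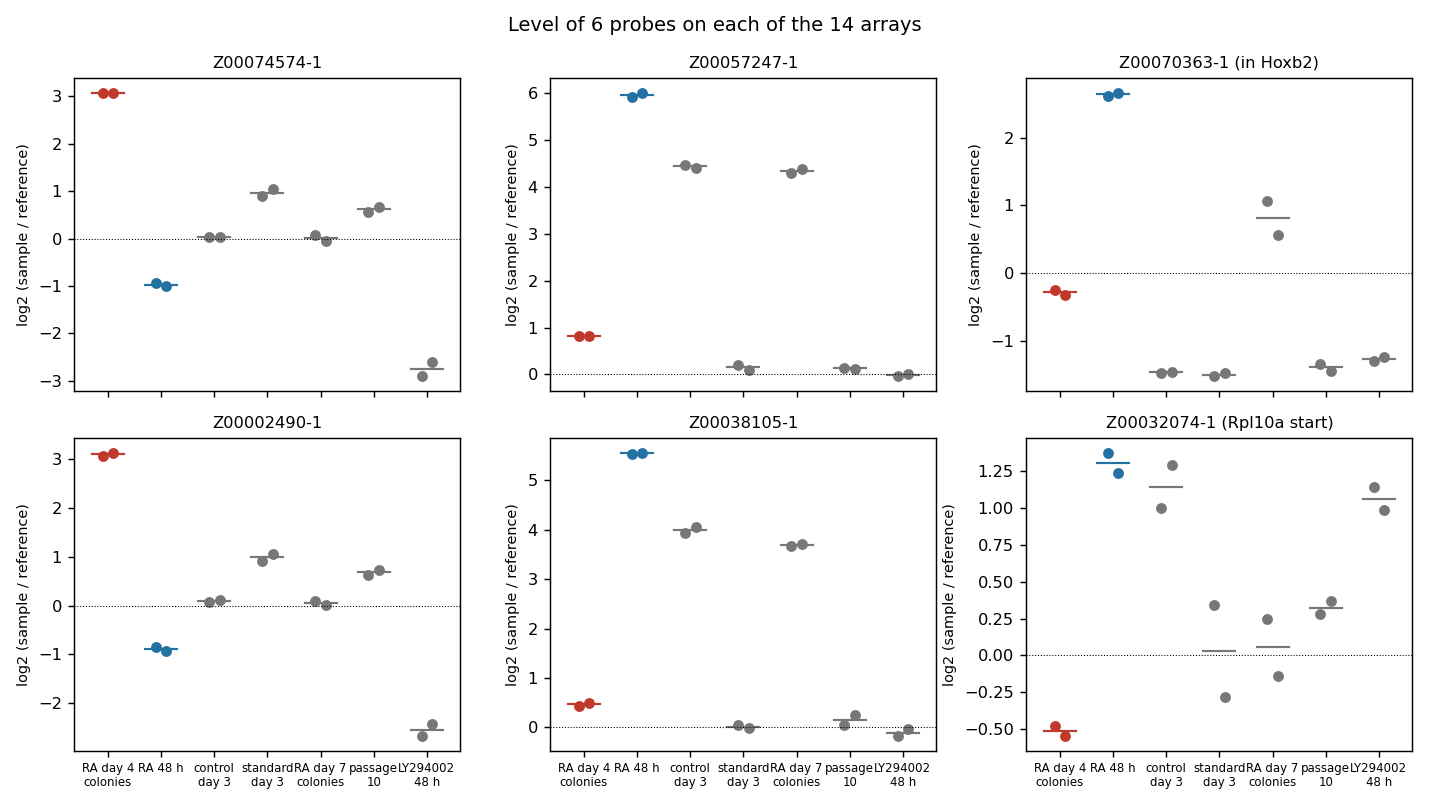
Log2 level of 6 probes over the reference on each of the 14 arrays; each point is 1 array, each bar the mean of 2, and the dotted line marks equality with the reference. Z00074574-1 sits at 3.06 and 3.07 on the day 4 arrays (red) and below 0 at 48 h (blue), while Z00057247-1 is high at 48 h, in control day 3 and in day 7 colonies.

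Hoxb2 encodes a homeodomain transcription factor of the hindbrain, and the Hox clusters are textbook targets of retinoic acid. The probe in its span, Z00070363-1, had levels of 2.62 and 2.66 at 48 h and of -0.25 and -0.33 in day 4 colonies, a difference of -2.93 (SE 0.12, 7.61-fold, limma adjusted p 9.25e-10). All 8 arrays of the 4 groups without retinoic acid at harvest lay between -1.53 and -1.24. Day 7 colonies were at 1.07 and 0.56. Its level was thus above the arrays without the acid in all 3 groups with it, and highest at 48 h. Against control day 3, of the same subline label, the probe was higher by 4.11 at 48 h (SE 0.12, limma adjusted p 3.31e-10). Against standard day 3, labelled MC1-ZE3 and so of another subline, it was higher by 1.22 in the colonies (SE 0.12, limma adjusted p 2.56e-06). The untreated groups differed at it by -0.04 (SE 0.12, limma adjusted p 0.789). The table used gives neither the strand nor the exons of Hoxb2, so it was not settled that the probe reads the Hoxb2 transcript; it lies on the strand opposite Hoxb3os.

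With this probe, 293 tested probes were placed on GRCm38.p6 by at least 30 exact bases in RefSeq windows around gene starts, and 258 of them lie inside a gene's span. Of the 293, 132 passed the threshold (45.1%, against 58.4% of all tested probes), 62 higher and 70 lower. At 2-fold, 3 of the 293 were higher and 8 lower, where 2.58% and 6.63% of all tested probes were. These are probes near gene starts only. In all, 7 of them lie in or at a gene of the 16 lists drawn up for pluripotency, retinoic acid response, germ layers and other cell types, and of these the probe in Hoxb2 passed at 2-fold. The other 6 ran from -0.56 to 0.13. A probe on the strand opposite Sycp1, a meiotic chromosome protein, was at -0.56 (SE 0.08, limma adjusted p 3.45e-05). One in the span of Lamb2, a laminin chain, was placed by the start window of Usp19 and was at -0.48 (SE 0.08, limma adjusted p 0.000203). Those at Pax7, Tal1, Stra6 and Acta2 did not pass, at -0.03, 0.09, 0.10 and 0.13. The probes at Tal1 and Stra6 lie on the strand opposite the gene.

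The other placed probes that were lower by 2-fold or more are given by gene. Z00032074-1 matches 45 bases at the start of Rpl10a (chr17:28328570-28328614, plus strand), a protein of the large ribosomal subunit. It had levels of -0.48 and -0.55 in the colonies and 1.38 and 1.24 at 48 h, a difference of -1.83 (SE 0.18, limma adjusted p 1.61e-06). Control day 3 was near the 48 h level, at 1.00 and 1.30, and standard day 3 at 0.34 and -0.28 lay between. Z00032009-1 lies at the start of Rpl38 (chr11:114668538-114668597, plus strand), also of the large subunit, and differed by -1.02 (SE 0.10). With the sample dye alone that difference was -0.00038 and no longer passed (limma adjusted p 0.998). A second probe sharing 48 bases with it gave -0.79. Z00067797-1 lies at Rps27rt (chr9:114982690-114982744, minus strand), a copy of the small-subunit gene Rps27, and differed by -1.01 (SE 0.11); ribosomal protein genes have near-identical copies, so which one these probes read is uncertain.

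Prdx1, a peroxiredoxin that removes hydrogen peroxide, and Nme2, a nucleoside diphosphate kinase, were lower too. The Prdx1 probe (Z00060544-1, chr4:116685609-116685648, plus strand) had levels of -0.55 and -0.58 in the colonies and 0.75 and 0.75 at 48 h, a difference of -1.32 (SE 0.11, limma adjusted p 4.51e-07). The Nme2 probe (Z00032352-1, chr11:93955844-93955903, minus strand) lies upstream of the start in the window but inside the gene's span, and differed by -1.44 (SE 0.11), or by -0.74 with the sample dye alone. A probe on the strand opposite Ap5b1, a subunit of an endosomal adaptor complex (Z00066557-1, chr19:5567781-5567840, minus strand), differed by -1.07 (SE 0.22, limma adjusted p 0.000906). At the start of Ntng1, a netrin-like axon guidance protein, Z00041441-1 (chr3:110143430-110143489, minus strand) was not well above background on either day 4 array. Its mean sample-dye signal at 48 h was 2.58-fold that in day 4 colonies. The limma adjusted p of 1.1e-05 belongs to its log2 difference on the ratio to the reference. The day 4 signal was not under the lowest one well above background on those arrays, so 2.58-fold is the measured ratio. As the day 4 signal is near background, that ratio is uncertain.

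Placed probes that were higher by 2-fold or more in the colonies numbered 3. Z00070705-1 lies in the span of Tmem253, on the strand opposite the start of the zinc finger gene Zfp219 (chr14:52019729-52019788, plus strand). Its levels were 1.75 and 1.81 in the colonies and 0.34 and 0.28 at 48 h, a difference of 1.47 (SE 0.10, limma adjusted p 4.81e-08). Z00001235-1 lies where the spans of Ttll3, a tubulin-modifying enzyme, and Arpc4, a subunit of the actin-nucleating Arp2/3 complex, coincide (chr6:113389270-113389309, plus strand). It differed by 1.46 (SE 0.08), and the files cannot say which of the 2 it reads. Z00029022-1 lies upstream of Cmtm7 on the opposite strand, in no annotated gene span (chr9:114782177-114782236, plus strand), and differed by 1.37 (SE 0.06). Agilent's processed signals gave 2.80 there and 2.22 at Z00070705-1.

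Overlapping probes show how well a difference repeats on the same RNA. Of tested probes, 600 pairs on the same strand share at least 30 bases, and their differences correlated at r of 0.967 with a median gap of 0.0731. In 86 of these pairs at least 1 probe passed at 2-fold, in 69 both did in the same direction, and in 0 did both pass in opposite directions. The 28 pairs on opposite strands had r of -0.232, and in 1 pair both passed at 2-fold in opposite directions. The same-strand pairs shared a median of 47 bases, and 23 of them were identical in sequence, which favours such agreement. Overlapping probes share bases, so a pair is not a replicate of a condition.

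**Figure D3:**
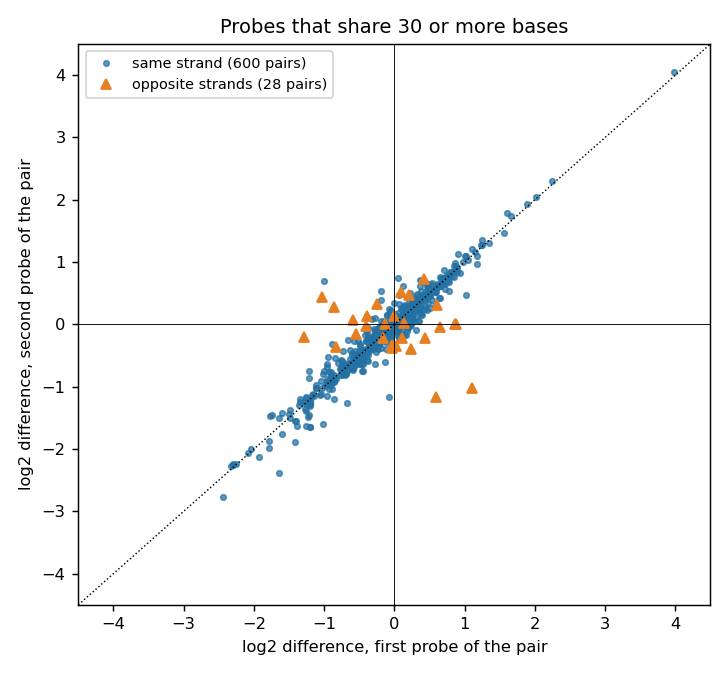
Log2 difference, day 4 colonies minus 48 h, of the first probe of each pair (horizontal) against the second (vertical), for pairs sharing 30 or more bases. Most of the 600 same-strand pairs (circles) lie along the dotted line of equality, and the 28 opposite-strand pairs (triangles) do not as a set.

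Untreated cells differed in the same direction at most of these probes. Standard day 3 minus control day 3 shares no array with the comparison and has no retinoic acid in it. Here 7611 probes were higher (24.5%) and 9131 lower (29.4%), with 446 (1.44%) and 1163 (3.75%) at 2-fold or more. Of the 2059 probes lower in day 4 colonies, 1451 were also lower in standard day 3 (70.5%, against 29.4% of all tested) and 195 were higher, with a median of -0.57. Of the 802 higher in the colonies, 558 were higher (69.6%, against 24.5%) and 69 lower, with a median of 0.52. The median over all tested probes was -0.02. Across the 31053 probes the 2 differences correlated at r of 0.527. Control day 3 shares slide 5 with the 48 h arrays, and 1 standard day 3 array was scanned on the same day as the day 4 arrays, so slide and scan day follow both differences.

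**Figure D4:**
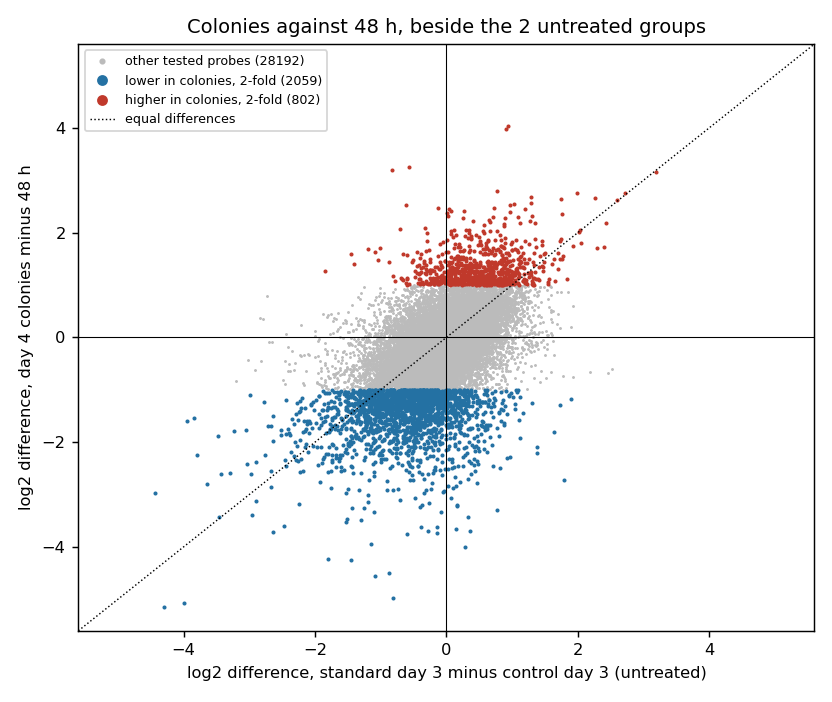
Log2 difference between the 2 untreated groups (standard day 3 minus control day 3, horizontal) against that between day 4 colonies and 48 h (vertical), for 31053 tested probes. Of the 2059 lower probes (blue) 1451 were also lower in standard day 3, and of the 802 higher ones (red) 558 were also higher.

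The difference between colonies and 48 h is, by arithmetic, the sum of 3 parts: colonies minus standard day 3, standard minus control day 3, and control day 3 minus 48 h. Among the 2059 lower probes the first part was the largest at 592 (28.8%), the untreated part at 772 (37.5%) and the 48 h part at 695 (33.8%). Among the 802 higher probes these were 448 (55.9%), 284 (35.4%) and 70 (8.73%). All 3 parts pointed the same way at 657 lower probes (31.9%) and 282 higher ones (35.2%), against 12.7% of all tested probes. In the lower set the median was -0.31 for colonies minus standard day 3 and 0.40 for 48 h minus control day 3. In the higher set these medians were 0.70 and -0.04. The parts share arrays with the whole difference and with each other, so the shares are a description. The probe in Hoxb2 belongs to those led by the 48 h part, Z00057247-1 to those led by the untreated part, and Z00074574-1 to those led by the colonies.

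**Figure D5:**
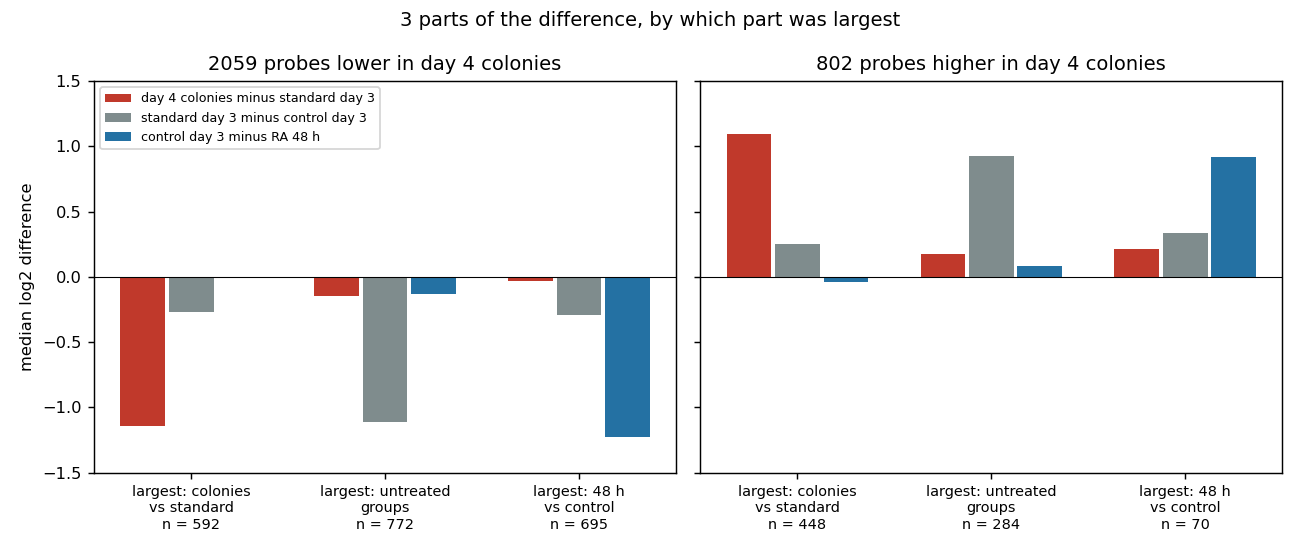
Median log2 size of the 3 parts that add up to the difference, for probes lower (left) and higher (right) in day 4 colonies by 2-fold or more, split by which part was largest (horizontal axis, with n). Bars start at 0; in the higher set the colony part was the largest at 448 of 802 probes.

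Taking the untreated difference off leaves colonies minus standard day 3, less 48 h minus control day 3. As no untreated MC1-ZE16 group is among the samples, subline and slide stay in its first term and cannot be told apart from retinoic acid. It was higher at 5503 probes (17.7%) and lower at 6523 (21%), with 816 (2.63%) and 1268 (4.08%) at 2-fold or more, by limma at an adjusted p under 0.05. Its median was -0.81 over the 2059 lower probes and 0.80 over the 802 higher ones. It shares the day 4 and 48 h arrays with the comparison, so these medians show how much was left and are no independent evidence. For Z00074574-1 it was 3.11 (SE 0.13), for the probe in Hoxb2 -2.89 (SE 0.17) and for Z00057247-1 -0.85 (SE 0.09). At Rpl10a it was -0.71 (SE 0.25) and at Prdx1 -0.53 (SE 0.16). It did not pass at Rpl38 (0.24, SE 0.14, limma adjusted p 0.194), Rps27rt (0.16, SE 0.16, limma adjusted p 0.458) or Ap5b1 (0.09, SE 0.31, limma adjusted p 0.855), where its sign was opposite to that of the direct difference.

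Levels across all groups place the 2 sets. The 2059 lower probes had a median level of -0.83 in day 4 colonies and 0.56 at 48 h. It was 0.31 in control day 3, -0.25 in standard day 3, -0.07 in day 7 colonies, -0.33 at passage 10 and -0.18 with LY294002. At 860 of them (41.8%, against 11.3% of all tested) both day 4 arrays lay below all 12 other arrays, and at 1016 (49.3%, against 10.9%) both 48 h arrays lay above all others. The choice of probes favours both patterns. A probe can show both patterns at once, and that overlap was not counted.

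The 802 higher probes had a median level of 1.00 in day 4 colonies and -0.27 at 48 h. It was -0.14 in control day 3, 0.33 in standard day 3, 0.02 in day 7 colonies, 0.38 at passage 10 and -0.14 with LY294002. Both day 4 arrays lay above all 12 others at 587 of them (73.2%, against 11.4% of all tested), and both 48 h arrays lay below all others at 183 (22.8%, against 5.6%). Here too the choice of probes favours both patterns. The set was above the reference at 703 of its probes in the colonies and at 291 at 48 h. Over all 31053 tested probes these counts were 15069 and 15545. The set was chosen by the difference between these 2 groups, which favours such a gap.

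The side on which day 7 colonies fell depended on the group they were set against. Day 7 colonies minus standard day 3 shares no array with the comparison. Of the probes lower in day 4 colonies, 1110 were higher in it (53.9%, against 28.4% of all tested) and 473 lower, with a median of 0.33. Of those higher in day 4 colonies, 184 were higher and 426 lower (53.1%, against 25.1%), with a median of -0.26. Day 7 colonies minus 48 h shares the 48 h arrays with the comparison, so it is no independent value. There 1570 of the lower set were lower (76.3%, against 27.7% of all tested) and 468 of the higher set were higher (58.4%, against 21.2%). LY294002 minus standard day 3, also on other arrays, gave medians of 0.16 and -0.41 for the lower and higher sets. In passage 10 minus standard day 3, where 1.66% of all tested probes were higher and 1.76% lower, 98 of the lower set were higher and 177 lower, and 21 and 27 of the higher set. Over all tested probes the comparison correlated at r of -0.219 with the day 7 difference, -0.229 with that of LY294002 and 0.130 with that of passage 10. These 3 share the standard day 3 arrays.

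Base composition and poly(A) signals were read from the probe sequences. Median GC was 43.3% in the lower set, 45% in the higher set and 45% over all tested probes. A poly(A) signal (AATAAA or ATTAAA, on the probe strand) was in 232 lower probes (11.3%), 124 higher ones (15.5%) and 3217 of all tested (10.4%).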

How the data were processed

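The 14 arrays are 2-colour Agilent arrays with the sample in Cy3 and the reference in Cy5, per the labels. The deposited intensity values are mean and background signals per spot, with no normalization, and processed signals that Agilent Feature Extraction 9.5.1.1 had background-subtracted and dye-normalized, per the file headers. Log10 ratios deposited in the same files run Cy5 over Cy3, per the file headers. The authors' deposited value table, in log10, covers 25030 probes (19083 tested); set against the scanner ratios it runs as sample over reference (r of 0.99927 to 0.99997 over 14654 probes), with column medians of 2.24 to 2.32, and its centring stays unknown.

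Here mean signals were corrected with normexp (offset 50) and normalized by loess with limma 3.58.1 (R 4.3.3; statmod 1.5.0). Control spots and 1 to 24 outlier spots per array were removed and repeated spots averaged. Probes entered the test when Cy3 was well above background on every array of a group, for any of the groups. The 7 group means were fitted over all 14 arrays (7 residual degrees of freedom, 5.33 from the prior), and contrasts tested two-sided with eBayes and Benjamini-Hochberg adjustment. No sample was dropped or imputed. With 2 arrays per group, their number limits the precision. In simulated data for this comparison, run on 31053 probes, the fit found 100% of 67 probes shifted by log2 2, 94.0% of 67 shifted by 1 and 62.1% of 66 shifted by 0.5, with 4 false calls. Only those probes were shifted, over noise drawn independently for each array, whereas 58.4% of the tested probes passed in the data. The simulation had no effect of slide, scan day or subline, so its rates need not hold for these arrays.

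Probes were placed by at least 30 exact bases in RefSeq windows (250 bases before to 50 after gene starts) and in miRNA hairpins: 434 of 42006 matched, 408 once and 26 several times. No probe name holds any of the 376 symbols of the 16 gene lists, so the lists could not be tested. Named are the 2 largest differences in each direction by identifier, and placed probes past the threshold, 2-fold and above background on all 4 arrays; Ntng1 and the list genes that did not reach 2-fold were added after their values were seen. Groups, comparisons and lists were chosen with earlier results of these data known. Same-numbered arrays of the 2 groups were not paired (r of their deviations 0.0744, 2 pairs). Alternatives tried were median centring, processed signals, Cy3 alone, scale normalization, the value table, another offset, other filters, a trend, fewer groups, blocks for replicate, slide and scan day, and leaving out each array.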

Additional observations from a re-analysis of the deposited data

Results flagged for a closer look

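The change in day 4 colonies against standard day 3 differed from the change at 48 h against control day 3 at many probes, by a test of the difference itself in limma: it was higher at 5503 and lower at 6523. Among the probes named above it was 3.11 for Z00074574-1 and 3.09 for Z00002490-1, and -0.85 for Z00057247-1 and -1.09 for Z00038105-1. At Z00038105-1 the standard day 3 arrays were not both well above background, which limits that value. The difference of the changes was -2.89 for the probe in Hoxb2 (Z00070363-1). At the placed probes it was -0.71 for Rpl10a, -0.70 for Nme2, -0.53 for Prdx1, 1.09 upstream of Cmtm7, 0.53 at Ttll3 and Arpc4, and 0.64 in Tmem253. At the other 3 it did not pass, at 0.24 for Rpl38, 0.16 for Rps27rt and 0.09 opposite Ap5b1. Subline, slide and scan day follow the same arrays and cannot be told apart from the treatments.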

How the results depend on the processing

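None of the 14 named probes run through the alternatives changed sign, but which direction held more calls did change. The probe at Ntng1 and those at list genes that did not reach 2-fold were not run through them. With Cy3 alone, higher calls led in day 4 colonies minus 48 h (9727 and 9007) and in standard minus control day 3 (9116 and 8367). In the difference of the changes they led with processed signals (5932 and 5678), Cy3 alone (5623 and 5450), the value table (4200 against 4109) and median centring (2118 and 1947). The counts are given as higher and lower, or as the one that moved by over 1.5 times. For day 4 colonies minus 48 h, Agilent's processed signals gave 2328 and 4077 at 2-fold, Cy3 alone 1755 higher at 2-fold, the authors' value table had 6442 lower and 1333 higher at 2-fold, and median centring 3826 higher. The value table holds 19083 of the tested probes. Its 6442 lower calls are 33.8% of these, against 33.0% of the 31053 in the main setting. Its 1333 higher at 2-fold are 6.99%, against 2.58%. The cause of the shifts was not tested. For standard minus control day 3, processed signals gave 1413 and 3188 at 2-fold, Cy3 alone 996 higher at 2-fold, the value table had 4801 and 5995 (796 and 2007 at 2-fold), and median centring 2432 higher (237 at 2-fold). The share of higher calls in that comparison went from 45.5% to 26.0% with median centring, and at 2-fold from 27.7% to 13.3%, or to 39.6% with Cy3 alone. For the difference of the changes, processed signals gave 2287 and 2470 at 2-fold and the value table had 1505 higher at 2-fold. Of the 14 named probes only that at Rpl38 lost its call, with Cy3 alone (-0.00038, adjusted p 0.998). Values moved by over 1.5 times in fold without losing the call with Cy3 alone at Nme2 (-0.74), Z00057247-1 (-4.33) and Z00038105-1 (-4.28). They did so with processed signals upstream of Cmtm7 (2.80) and in Tmem253 (2.22, and 2.22 in the value table). Leaving out each array in turn gave 6426 to 6702 higher and 8928 to 9056 lower for day 4 minus 48 h, with 793 to 814 and 2027 to 2082 at 2-fold. With the replicate number as a block it gave 7969 and 10329, and the 2-fold counts stayed 802 and 2059; the numbers do not pair the samples. With slide or scan day as a random block the correlations were -0.0338 and 0.0303, and no count moved by over 1.5 times. The day 4 arrays lie on 1 slide and scan day and the 48 h arrays on another. Such a block therefore cannot take a slide or scan day offset out of their difference. A filter on all 14 arrays, added after the data were seen, gave 6852 and 8249. Probes near background have uncertain values, and 2 arrays per group limit the precision.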
